A study of Mus musculus with 2 samples.

Results

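The genes described here are 29 immediate early genes and 11 heat shock genes, 40 of the 32285 genes listed in the count matrices. They were chosen by name, whatever their values, and all 40 symbols were found in both matrices. The data are single-cell RNA counts from 2 mouse libraries prepared by the 10x Genomics 3′ method, in which each RNA molecule is counted once by its unique molecular identifier (UMI). The library labelled heterozygous for Cx3cr1 (Het, replicate 1) and the library labelled wild type (WT, replicate 1) hold cells labelled as microglia-like from the central nervous system of transplanted mice. The labels give 1 protocol for both libraries: cells with and without GFP were sorted from a lineage-negative (Lin-) pool of Cx3cr1-/+ mice and injected into a vein of CD45.1 recipients, with donor and recipient at 1:1. The recipients had received 4 doses of 25 mg/kg busulfan as conditioning, a drug that depletes blood-forming cells. How many animals were used, their sex and age and the interval between transplant and harvest are not given in the sources used here, so the animals behind a library may have been pooled. Because both libraries carry that donor text, the labels do not settle which donors the cells labelled WT (Cx3cr1+/+) came from, and Het and WT are used here as library labels. With 1 library per genotype, no difference between Het and WT has a replicate check and no p-value is given.

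Immediate early genes are transcribed within minutes of a stimulus, without new protein synthesis, and their RNAs are short-lived. Many encode transcription factors of the AP-1, Egr, Klf and Nr4a families, and others encode phosphatases, mRNA decay factors and NF-kB inhibitors that end the response. Heat shock genes encode chaperones that bind unfolded proteins, some at a steady level in every cell and some only after heat or another protein-damaging stress. In tissue macrophages both groups can be induced during enzymatic dissociation and sorting, as well as by activation in the animal.

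The start-site sequences of 6 members are shown because each holds a motif searched here. They belong to members whose levels are described further on. In the Jun window the only match is a heat shock element of 2 units. Of the 40 members, 33 had a promoter window in RefSeq (build GRCm38.p6), here the 250 bases before the start site, and 32851 windows of all genes gave the background. These 33 members had 43 windows. A member counts if any of its windows holds the motif, whereas the background is a share of single windows. Members with several windows thus have more chances, and the shares are not like for like. None of the 6 windows overlaps an annotated exon (0 of 6). Sequences run 5′ to 3′ on the gene's own strand, and capitals mark the motifs searched.
Fos (chr12:85473640-85473889, plus strand): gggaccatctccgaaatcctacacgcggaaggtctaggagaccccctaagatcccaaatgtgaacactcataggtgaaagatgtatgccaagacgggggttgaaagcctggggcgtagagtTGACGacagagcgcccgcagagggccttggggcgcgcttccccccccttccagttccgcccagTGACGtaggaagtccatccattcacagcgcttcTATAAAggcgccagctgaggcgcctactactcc
Jun (chr4:95052223-95052472, minus strand): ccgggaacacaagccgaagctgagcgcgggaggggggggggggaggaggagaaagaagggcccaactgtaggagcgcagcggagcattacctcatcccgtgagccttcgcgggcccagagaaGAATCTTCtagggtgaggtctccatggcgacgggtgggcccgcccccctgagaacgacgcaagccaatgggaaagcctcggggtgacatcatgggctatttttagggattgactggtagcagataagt
Btg2 (chr1:134079156-134079405, minus strand): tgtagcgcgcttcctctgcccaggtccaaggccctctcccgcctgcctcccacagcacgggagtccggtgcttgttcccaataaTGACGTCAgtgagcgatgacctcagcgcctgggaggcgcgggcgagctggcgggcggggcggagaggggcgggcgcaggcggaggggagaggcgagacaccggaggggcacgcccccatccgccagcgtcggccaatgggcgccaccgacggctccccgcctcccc
Nr4a1 (chr15:101266596-101266845, plus strand): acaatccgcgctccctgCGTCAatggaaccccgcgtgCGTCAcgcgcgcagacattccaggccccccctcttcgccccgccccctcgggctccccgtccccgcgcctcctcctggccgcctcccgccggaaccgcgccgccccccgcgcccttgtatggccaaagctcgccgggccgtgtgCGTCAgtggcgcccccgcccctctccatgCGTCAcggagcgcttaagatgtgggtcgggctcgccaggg
Nfkbia (chr12:55492648-55492897, minus strand): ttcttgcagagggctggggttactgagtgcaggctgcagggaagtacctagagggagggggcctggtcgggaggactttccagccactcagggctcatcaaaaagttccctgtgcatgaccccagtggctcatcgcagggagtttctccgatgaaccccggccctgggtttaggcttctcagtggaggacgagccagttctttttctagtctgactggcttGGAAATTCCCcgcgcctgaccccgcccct
Hspa1a (chr17:34972157-34972406, minus strand): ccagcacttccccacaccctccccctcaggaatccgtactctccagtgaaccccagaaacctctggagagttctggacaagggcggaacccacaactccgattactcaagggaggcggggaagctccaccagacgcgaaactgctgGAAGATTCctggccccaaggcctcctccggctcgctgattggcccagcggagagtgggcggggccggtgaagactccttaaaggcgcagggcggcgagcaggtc
The Fos window holds TGACG, part of the cAMP response element, 129 and 66 bases before the start and TATAAA 33 bases before it. The Btg2 window holds the full element TGACGTCA 166 bases before the start, a motif found in 1.55% of all windows and in those of 2 members, Btg2 and Dusp1. The Nr4a1 window holds CGTCA, the reverse of TGACG, 4 times. TGACG on either strand was present for 14 of 25 immediate early and 4 of 8 heat shock genes, against 17.8% of all windows. The Nfkbia window holds GGAAATTCCC, a match to the NF-kB site on the reverse strand, 29 bases before the start. The NF-kB site, searched on both strands, was present in 1.41% of all windows and in those of Dusp5, Nfkbia and Tnfaip3. The CArG box, by which serum response factor binds, was present in 1.47% of all windows and in those of Dusp5, Egr2 and Zfp36. The AP-1 site TGAGTCA was present on either strand in 4.46% of all windows and in those of Hspa5 and Tnfaip3. TATAAA on either strand was present in 12.4% of all windows and in those of Btg1, Fos, Nr4a2, Tnfaip3 and Zfp36l1.

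The heat shock element is built from inverted GAA units. Its 2-unit form (GAANNTTC or TTCNNGAA, both on either strand) was present for 6 of 8 heat shock genes and 3 of 25 immediate early genes (Egr2, Fosl2 and Jun), against 12.8% of all windows. The 3-unit form, which adds another inverted unit at the same spacing, contains the 2-unit form and was present in 0.466% of all windows and in those of Hspd1 and Hspe1. These genes encode both subunits of the mitochondrial chaperonin and lie head to head on chromosome 1, with annotated ends that overlap by 112 bases. The Hspe1 window overlaps a Hspd1 window by 215 bases, so the same letters can count under both genes. In the Hspe1 window 2 overlapping matches form this 18-base element, 89 bases before the Hspe1 start.
Hspe1 element (chr1:55088059-55088076, plus strand): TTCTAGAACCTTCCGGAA
Hspa1a and Hspa1b, the inducible cytosolic Hsp70 genes, lie 9951 bases apart on chromosome 17, and their windows are identical at 247 of 250 positions. Over their whole transcripts they share 58.8% and 62.3% of 50-base words, but 0 of 451 words in the last 500 bases, where 3′ reads fall. A motif match describes letters only, and binding was not measured.

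The Het matrix listed 1837 barcodes and 17828344 UMIs, and the WT matrix 2359 barcodes and 22062823 UMIs. Cells were kept if they had 500 or more genes detected and a mitochondrial share below 10%, 1489 in Het and 1949 in WT, with median depths of 6880 and 6637 UMIs. The libraries shared 339 barcodes, of which 255 Het and 198 WT cells were kept. For clusters rich in them, values without them are also given. The 40 members were left out of the genes used for clustering, which gave 16 clusters, and names come from marker lists. Levels are CPM values, the usual depth-scaled unit, from UMIs summed over the cells of a class and divided by their total. UMIs are counted at transcript ends, so no division by transcript length was made. Intervals are exact, at 95%, and cover counting error only.

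The label of microglia was checked first. In both clusters named microglia-like all 14 microglia markers were detected, with summed levels of 36199.6 CPM (Het) and 37597 CPM (WT) in the first and 35741 and 41991 CPM in the second. The first is named here for P2ry12, a purinergic receptor of resting microglia, which stood at 1334 CPM in Het and 1519 CPM in WT there, against 593 and 896 CPM in the second. The second is named for Ltc4s, leukotriene C4 synthase, one of its leading genes. The P2ry12 cluster held 88 Het and 111 WT cells and the Ltc4s cluster 115 and 168. Cx3cr1, the gene the genotype labels name, stood at 2151 CPM in Het and 2307 CPM in WT microglia-like cells, so its level did not separate the labels in that class. Cell types differed in this: it was lower in Het in patrolling monocyte-like cells, at 298 and 457 CPM. In the Ltc4s cluster it ran the other way, at 781 and 662 CPM.

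Immediate early RNA was abundant and uneven across cell types, whereas heat shock RNA was scarcer and more even. Summed over the 29 genes, immediate early UMIs made up 2.32% of all UMIs in Het and 2.48% in WT, and the 11 heat shock genes 0.48% in both. The share of immediate early UMIs was highest, among classes with at least 50 cells per library, in the P2ry12 cluster, at 4.40% in Het and 4.74% in WT. Border-associated macrophage-like cells followed at 3.11% and 3.13%, an unnamed cluster led by Retnlg and Il1b at 3.02% and 2.95%, and patrolling monocyte-like cells at 2.96% and 2.97%. Classical monocyte-like cells held 2.39% and 2.31%, an unnamed cluster led by Gpnmb, Spp1 and Apoe 2.19% and 2.74%, dendritic cell-like cells 2.20% and 2.04%, and neutrophil-like cells 1.77% and 1.88%. These 3 neighbours lie close together, and their order is not read. At the low end stood the Ltc4s cluster with 0.68% and 0.51%, and a cluster called Elane-Aldoc here with 0.61% and 0.73%. The last matched astrocyte markers, but Ctsk, Acp5, Elane and Mpo, genes of osteoclasts and granulocyte precursors, were also among its leading genes, so it is given no cell type. Among the same classes the heat shock share was highest in that last cluster, at 0.97% and 0.84%, and lowest in neutrophil-like cells, at 0.28% and 0.32%. In the Elane-Aldoc cluster, 59 of 88 Het and 43 of 54 WT cells carry barcodes listed in both libraries, and without them its shares were 0.85% and 0.74% for immediate early and 0.77% and 0.65% for heat shock genes.

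The members with the most UMIs over all kept cells were Fos (109180 UMIs over both libraries), Junb (88944), Jund (69256), Jun (66058), Dusp1 (65486), Nfkbia (63837), Hspa8 (62794), Hsp90ab1 (53670), Klf2 (50127), Zfp36 (47755), Btg1 (43166) and Ier2 (35204). Of these 12, Hspa8 and Hsp90ab1 are constitutive chaperones and the other 10 are immediate early genes. All 40 members had at least 50 UMIs overall. In microglia-like cells Egr3, Nr4a2 and Hspa1b fell below 50 UMIs, and in monocyte-like cells Egr2 and Egr3 did. Immediate early genes are compact: the median gene length in the GENCODE M21 annotation was 5260 bases for the 29, of which 21 were under 10000 bases and 6 (Jun, Jund, Ier2, Ier5, Rhob and Zfp36) had a single exon block. The heat shock genes had a median length of 5578 bases.

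Within microglia-like cells the immediate early genes differed between the clusters. Their summed level was 6.52-fold higher in the P2ry12 than in the Ltc4s cluster in Het (log2 2.71, 2.66 to 2.76) and 9.38-fold higher in WT (log2 3.23, 3.18 to 3.28). Of the 29 immediate early genes, 24 had at least 50 UMIs over both clusters in each library, and all 24 of these were more than 1.5-fold higher in the P2ry12 cluster in both libraries. Over all 3947 genes measured this way 32.3% were, with a median log2 ratio of 0.30 in Het and 0.33 in WT. The immediate early medians were 2.61 and 3.18. A member can pass the minimum through the P2ry12 cluster alone, and such a member had to differ, so the count describes the 24 and supports nothing beyond them. The clusters were drawn from the same cells, on genes that can vary together with the members, so the contrast is a description.

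The AP-1 genes encode the Fos and Jun proteins that pair to form the AP-1 transcription factor. Fos stood at 5106 CPM in Het and 5574 CPM in WT in the P2ry12 cluster, against 892 and 522 CPM in the Ltc4s cluster, a 5.72-fold and 10.7-fold difference. Jun stood at 5581 and 6620 CPM against 671 and 432 CPM, and Junb, which can restrain Jun, at 4124 and 4496 CPM against 605 and 407 CPM. Jund, the member of the family most often present in resting cells, stood at 3859 and 4160 CPM against 544 and 458 CPM. For these 4 genes the libraries of the P2ry12 cluster lay above those of the Ltc4s cluster with a wide gap. Fosb had the largest ratios of the AP-1 genes, with 755 and 786 CPM against 46.8 and 19.1 CPM, or 16.1-fold and 41.2-fold. The upper ratio rests on 11 UMIs in the WT Ltc4s cluster. Atf3, a stress-induced partner of AP-1 proteins, stood at 1803 and 2049 CPM against 193 and 161 CPM. Fosl2 did not reach the UMI minimum.

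The Egr genes encode zinc finger factors. Egr1 stood at 2234 CPM in Het and 2384 CPM in WT in the P2ry12 cluster, against 168 and 196 CPM, which is 13.3-fold and 12.2-fold. Egr2 and Egr3 had too few UMIs to be measured, and Egr3 had 0 UMIs in the Ltc4s cluster of either library. Among the Klf and Nr4a factors, Klf4 stood at 605 and 640 CPM against 33.2 and 31.2 CPM, or 18.2-fold and 20.5-fold. Klf2, which is known to restrain inflammatory gene expression in myeloid and endothelial cells, stood at 1174 and 1208 CPM against 93.7 and 166 CPM. Nr4a1, an orphan nuclear receptor, was low in both clusters, with 191 and 165 CPM against 37.1 and 52.0 CPM. Nr4a2 had 0 UMIs in the Ltc4s cluster of WT, and no ratio is given.

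The genes that damp the response followed the same direction. Dusp1, a phosphatase that switches off MAP kinases, stood at 1977 CPM in Het and 1794 CPM in WT against 316 and 222 CPM. Zfp36 and Zfp36l1 encode proteins that bind AU-rich elements and speed up mRNA decay. Zfp36 stood at 2135 and 2254 CPM against 361 and 253 CPM, and Zfp36l1 at 1041 and 1254 CPM against 221 and 146 CPM. Nfkbia encodes the inhibitor that holds NF-kB in the cytoplasm and stood at 2069 and 2503 CPM against 580 and 401 CPM, with ratios of 3.57 and 6.25, among the smaller of the list. Tnfaip3, the ubiquitin-editing enzyme A20, stood at 333 and 282 CPM against 42.9 and 15.6 CPM. The antiproliferative genes stood at 1386 and 1390 CPM against 283 and 290 CPM for Btg1, and at 1634 and 1768 CPM against 125 and 109 CPM for Btg2. Ier2, a short nuclear protein gene, stood at 1097 and 1133 CPM against 254 and 255 CPM. Rhob, a small GTPase gene with early response kinetics, stood at 2494 and 2514 CPM against 509 and 413 CPM.

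Of 11 heat shock genes 9 were measured, and 3 of them (Hspa1a, Dnajb1 and Hspa5) were more than 1.5-fold higher in the P2ry12 cluster in both libraries, beside the same 32.3% of all genes. 1, Hspe1, was lower, beside 11.4% of all genes. Both counts are near the share over all genes, so they are no result about the list. Hspa1a stood at 51.1 CPM in Het and 50.4 CPM in WT against 3.90 and 5.2 CPM. It reached the UMI minimum through the P2ry12 cluster (49 and 57 UMIs, against 2 and 3), so it had to differ. Hspa1b had 0 UMIs in the Het Ltc4s cluster. Dnajb1, the co-chaperone of inducible Hsp70, stood at 119 and 137 CPM against 27.3 and 34.7 CPM, and Hspa5, a chaperone of the endoplasmic reticulum, at 1496 and 1564 CPM against 617 and 468 CPM. Hspe1, the small chaperonin subunit, stood at 247 and 197 CPM against 406 and 409 CPM. Hsp90aa1, the inducible form of Hsp90, stood at 232 and 242 CPM against 232 and 177 CPM. The constitutive chaperones Hspa8 and Hsp90ab1, the heat shock genes with the most UMIs, differed less than 1.5-fold. Hspa8 stood at 1177 and 1244 CPM against 1427 and 1332 CPM, and Hsp90ab1 at 1063 and 1011 CPM against 1292 and 1264 CPM. The heat shock sum had a log2 ratio of 0.13 (0.06 to 0.21) in Het and 0.25 (0.18 to 0.32) in WT. Scaling turned its sign, to -0.22 and -0.21 with TMM factors and to -0.17 and -0.12 with median-of-ratios factors, so no direction is given for it. The median heat shock log2 ratios, 0.00 and 0.04, lay below those of all genes.

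**Figure D1:**
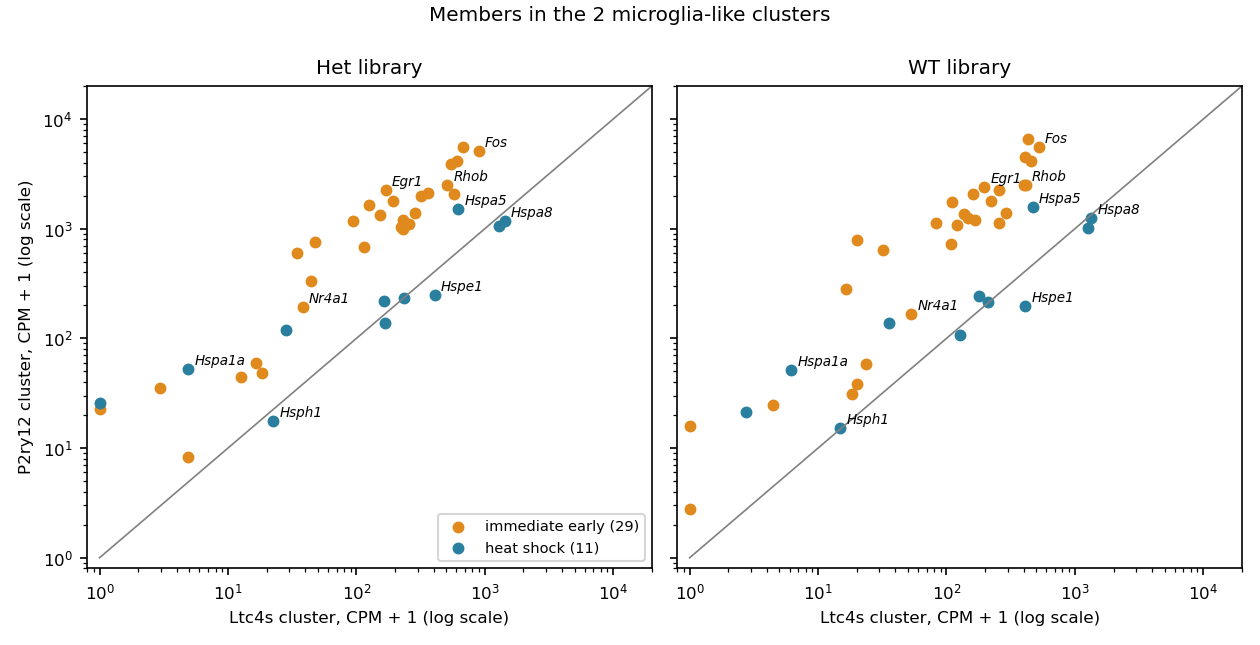
Each point is a member, with its level in the Ltc4s cluster on the horizontal axis and in the P2ry12 cluster on the vertical axis, both as CPM + 1 on log scales, 1 panel per library. Immediate early points lie above the line of equal level, as with Fos at 5106 against 892 CPM in Het, while Hspa8 and Hsp90ab1 lie near it.

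Several other measures moved with this contrast. Malat1, a nuclear non-coding RNA, stood at 41097 CPM in Het and 43237 CPM in WT in the P2ry12 cluster against 7059 and 2126 CPM in the Ltc4s cluster, and Neat1, also nuclear, at 489 and 535 CPM against 95.6 and 26.0 CPM. Median depth was 8091 and 7411 UMIs per cell against 2949 and 2501, and median mitochondrial shares were 2.06% and 2.24% against 4.16% and 3.59%. The 12 neutrophil markers summed to 1174 and 1694 CPM in the P2ry12 cluster, with Ly6g at 0 in WT, against 10021 and 10548 CPM in the Ltc4s cluster, where all 12 were detected. The 8 proliferation markers, all detected, summed to 429 and 533 CPM against 1602 and 928 CPM, and the border-associated macrophage markers to 712 and 459 CPM (9 and 10 of 10 detected, Cd209b at 0 in Het) against 1507 and 1039 CPM (8 and 9 detected, Cd209b at 0 in both). The dendritic cell markers summed to 24693 and 26916 CPM against 33776 and 43394 CPM, with Ccr7 at 0 throughout, on a list that includes Cst3 and Siglech, which microglia also express. Xist, also a nuclear RNA, stood at 1237 and 1109 CPM against 390 and 22.5 CPM. In the P2ry12 cluster 82 of 88 Het and 85 of 111 WT cells had Xist UMIs and none of Y-linked genes. In the Ltc4s cluster 15 of 115 and 5 of 168 did. Y-linked UMIs without Xist were seen in 0 and 1 cells against 1 and 12. Both kinds together were seen in 0 Het and 17 WT cells of the P2ry12 cluster, against 0 and 0. Whether those 17 barcodes hold RNA of more than 1 cell was not tested. Neither kind was seen in 6 and 8 cells against 99 and 151, so the sex of most Ltc4s cells is not settled. Actb stood at 6565 and 7038 CPM against 8688 and 9187 CPM and Gapdh at 1083 and 869 CPM against 1811 and 1873 CPM, both lower in the P2ry12 cluster. The part of nuclear RNA content, of RNA from other cells and of sex or animal in the contrast was not tested.

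Per cell, the clusters were also compared at 1 depth. Each cell was thinned to 2000 UMIs and shallower cells were left out, 12 Het and 16 WT cells of the P2ry12 cluster and 35 and 63 of the Ltc4s cluster. The median cell of the P2ry12 cluster then held 89 immediate early UMIs in Het and 96 in WT, with the 5th percentile at 43.8 and 42.8. The median cell of the Ltc4s cluster held 4.5 and 5 UMIs, with the 95th percentile at 34.2 and 24.8. Those ranges of 90% of the cells do not overlap. The heat shock medians were 9 and 8 UMIs against 7 and 7, with ranges that overlap nearly throughout. Of all microglia-like cells thinned, 68 of 156 Het cells (43.6%) and 78 of 200 WT cells (39.0%) held fewer than 10 immediate early UMIs, a limit chosen after the values were seen. Choroid plexus-like cells, of which 36 of 39 Het and 36 of 36 WT cells carry shared barcodes, held medians of 6 and 5 immediate early UMIs, close to those of the Ltc4s cluster. With 3 and 0 cells left without shared barcodes, no such value can be given for them.

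**Figure D2:**
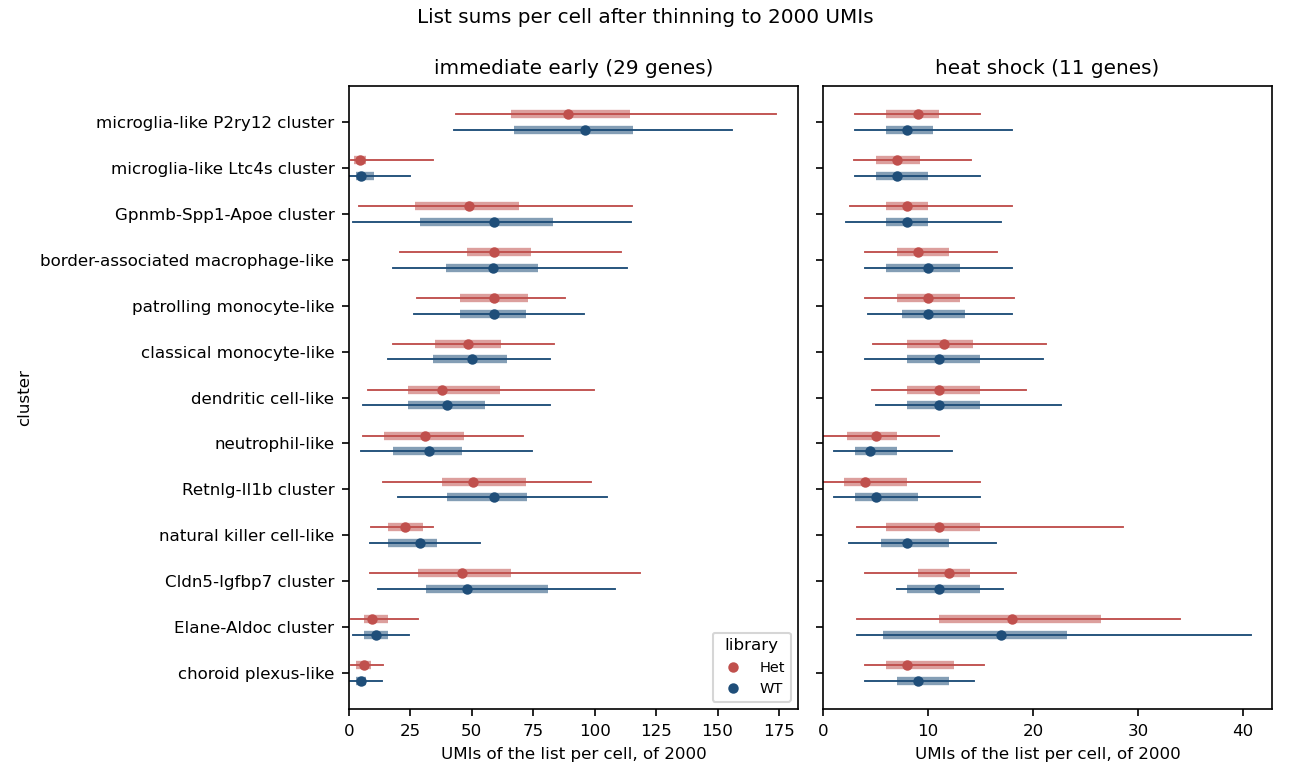
UMIs of the immediate early and heat shock genes per cell after thinning to 2000 UMIs, by cluster and library, with the median (point), the 25th to 75th percentiles (thick bar) and the 5th to 95th percentiles (thin line). The P2ry12 cluster has the highest immediate early medians (89 and 96) and the Ltc4s cluster medians of 4.5 and 5, whereas heat shock medians lie between 4 and 18 in every cluster shown.

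Many immediate early genes, but not every one, varied with the rest of the list between cells. Across the 156 Het and 200 WT thinned microglia-like cells, which share a library and span both clusters, the immediate early sum had a Spearman correlation of 0.80 and 0.77 with Malat1, of -0.53 and -0.39 with the mitochondrial share and of 0.42 and 0.45 with the deposited UMI total. Its correlation with the heat shock sum was 0.22 and 0.21. Within the P2ry12 cluster alone (76 and 95 cells) the correlation with Malat1 was 0.24 and 0.15 and that with the UMI total -0.18 and 0.02. In that cluster each member was also set against the sum of the other immediate early genes. Junb tracked the other immediate early genes most closely in both libraries, at 0.57 and 0.65, followed in WT by Jun at 0.49 and 0.52 and Btg2 at 0.47 and 0.51. Zfp36 stood at 0.56 and 0.48 and Egr1 at 0.54 and 0.41, while Nr4a1 stood at 0.10 and 0.04, Btg1 at 0.11 and 0.18 and Klf2 at 0.30 and 0.04. Over the 23 immediate early genes with enough UMIs the median was 0.33 and 0.34, and 2 genes in Het and 6 in WT lay under 0.2. Values for genes outside the lists were not computed in that form. The heat shock genes, which fill far fewer UMIs per cell, ranged from -0.12 for Hspd1 to 0.32 for Dnaja1 in Het and from -0.23 for Hspd1 to 0.19 for Hspa5 in WT, and weak values in sparse counts are no finding. In patrolling monocyte-like cells (158 and 347 cells) Zfp36 led the immediate early genes at 0.49 and 0.46, and Fos stood at 0.45 and 0.35. There 8 of 26 genes lay under 0.2 in each library, among them Ier3 at 0.03 and 0.00.

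By a rule that takes the lower of the library values, the 10 genes outside the list most like the immediate early sum across thinned microglia-like cells, of 2317 candidates, included Malat1, Cx3cr1 (0.69 and 0.67), H3f3b (0.67 and 0.67), Ddx5 (0.65 and 0.71), Dleu2, Ppp1r15a (0.60 and 0.61), Mcl1 (0.72 and 0.59), Sgk1 and Ccnl1. These cells span both clusters, which differ widely in the sum, so genes picked this way tend to differ between the clusters too. Apart from Malat1, above, no correlation within 1 cluster is given for them. Cx3cr1 stood at 2882 CPM in Het and 3145 CPM in WT in the P2ry12 cluster against 781 and 662 CPM in the Ltc4s cluster. Mcl1 stood at 1083 and 1073 CPM against 199 and 206 CPM. The gene most like the heat shock sum was Nfu1, at 0.22 and 0.29, and the other 9 (Rgs2, Gem, Ifngr1, Stx7, Fubp1, Il10ra, Senp6, Mat2a and Smap2) were weaker still in their lower value.

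**Figure D3:**
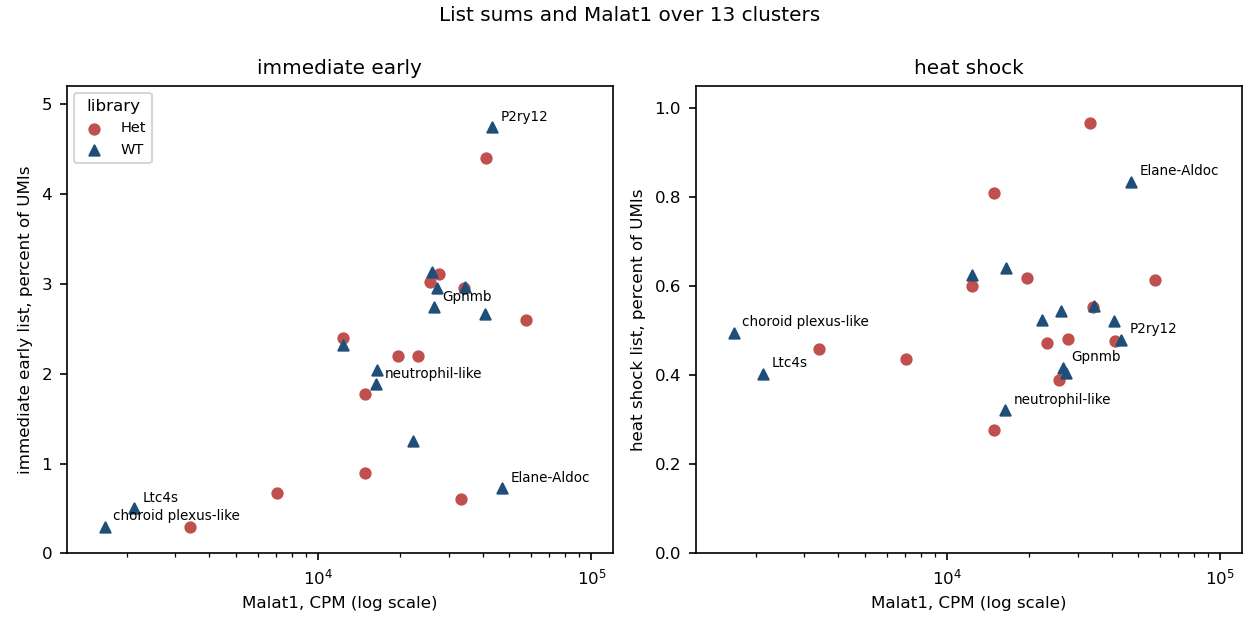
The share of UMIs from the immediate early genes and from the heat shock genes against the level of Malat1 (CPM, log scale), 1 point per cluster and library for 13 clusters. Over the 13 clusters the Spearman correlation of the immediate early share with Malat1 was 0.64 in Het and 0.56 in WT, and the Elane-Aldoc cluster combines high Malat1 with 0.61% and 0.73% immediate early UMIs.

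Between the libraries labelled Het and WT, the members were close to level in microglia-like cells (203 Het and 279 WT cells). The immediate early sum stood at 3.1% of UMIs in Het and 3.31% in WT, a log2 ratio of Het over WT of -0.09 (-0.11 to -0.08), and for the heat shock sum it was 0.03 (-0.02 to 0.08). Of 37 members with at least 50 UMIs over both libraries, 0 were 1.5-fold higher and 0 were 1.5-fold lower in Het. Of all 6442 genes measured, 3.87% were higher and 2.25% lower by that fold. The median log2 ratio was -0.06 over 27 immediate early genes and 0.03 over 10 heat shock genes, against 0.01 over all genes. Jun stood at 3872 CPM in Het and 4532 CPM in WT, a log2 ratio of -0.23 (-0.28 to -0.18). Fos stood at 3639 and 3869 CPM (-0.09, -0.14 to -0.04), Nfkbia at 1551 and 1793 CPM (-0.21, -0.29 to -0.13) and Dusp1 at 1399 and 1264 CPM (0.15, 0.06 to 0.23). Tnfaip3 stood at 232 and 192 CPM (0.28, 0.05 to 0.50) and Hspd1 at 147 and 113 CPM (0.38, 0.09 to 0.67). Rhob was level, at 1804 and 1805 CPM, and so were Hspa8, at 1264 and 1273 CPM, and Hspa5, at 1190.1 and 1194 CPM. The sign of the immediate early sum was not stable: it was 0.06 with equal weight per cell, 0.04 after thinning and -0.18 over cells with Xist UMIs and none from Y-linked genes. It was -0.11 in the P2ry12 cluster and 0.42 in the Ltc4s cluster, where equal weight per cell gave -0.17.

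The libraries also differed in measures other than genotype. In the P2ry12 cluster 82 of 88 Het and 85 of 111 WT cells had UMIs of Xist, the RNA of the inactive X chromosome, and none of Y-linked genes. In monocyte-like cells 236 of 287 Het cells were of that kind, whereas 344 of 593 WT cells had UMIs of Y-linked genes and none of Xist. In microglia-like cells the markers of border-associated macrophages summed to 988 CPM in Het and 655 CPM in WT, those of disease-associated phagocytes to 1567 and 1149 CPM and those of neutrophils to 4254 and 4683 CPM. Genotype, animal, sex and library cannot be told apart with 1 library each.

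**Figure D4:**
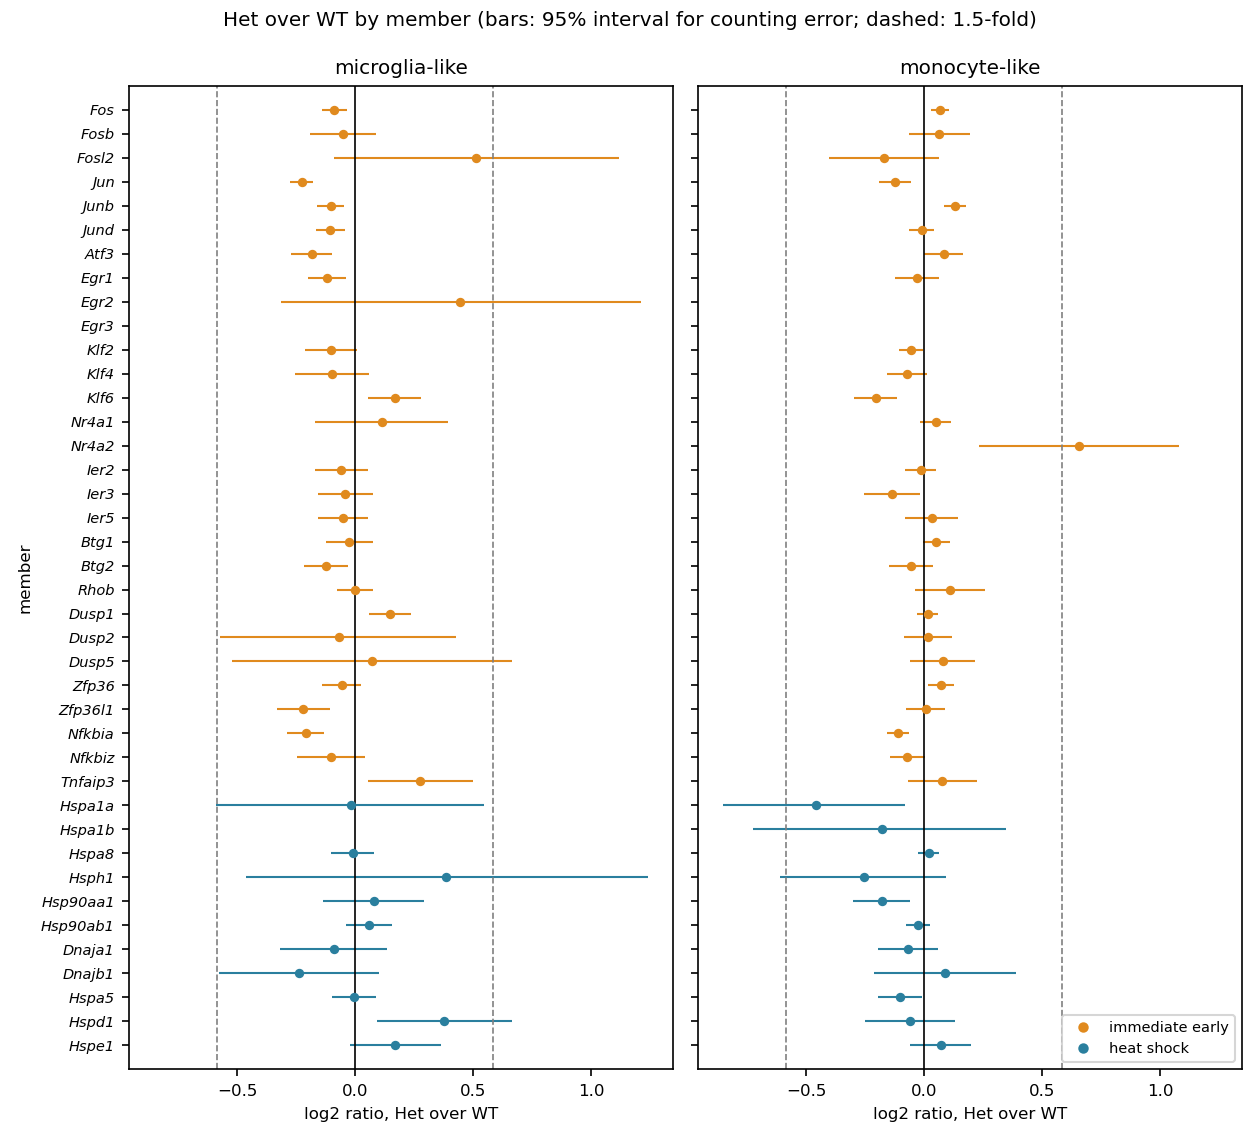
Log2 ratio of Het over WT for each member with at least 50 UMIs, in microglia-like and monocyte-like cells, with exact 95% intervals for counting error and lines at 1.5-fold. No microglia-like point passes the lines, and Nr4a2 (0.66) is the point that does so in monocyte-like cells.

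In monocyte-like cells (287 Het and 593 WT cells) the log2 ratio of Het over WT was 0.00 (-0.01 to 0.02) for the immediate early sum. For the heat shock sum it was -0.03 (-0.05 to 0.00). Of 38 members measured, 1 was 1.5-fold higher in Het and 0 were lower, against 2.25% higher and 2.52% lower of 7965 genes. The gene was Nr4a2, another orphan nuclear receptor, at 33.5 CPM in Het (88 UMIs) and 21.3 CPM in WT (104 UMIs), a log2 ratio of 0.66 (0.23 to 1.08). After thinning to 2000 UMIs per cell the ratio was -0.03. Hspa1a stood at 30.5 and 41.9 CPM (-0.46, -0.85 to -0.08). Fos (3180 and 3032 CPM), Junb (2206 and 2015 CPM), Jund (1610 and 1622 CPM) and Dusp1 (2514 and 2489 CPM) lay within a log2 ratio of 0.13 of level.

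In natural killer cell-like cells, 32 in Het and 59 in WT, the lists moved in opposite directions. The immediate early sum made up 0.89% of UMIs in Het and 1.25% in WT (log2 -0.48, -0.55 to -0.41), and the heat shock sum 0.81% and 0.52% (log2 0.63, 0.54 to 0.72). Hspa8 stood at 2939 and 2074 CPM, Hsp90ab1 at 2399 and 1497 CPM and Hspd1 at 385 and 170 CPM, all higher in Het. Klf2, which keeps lymphocytes quiescent, stood at 1053 and 1775 CPM and Nfkbia at 254 and 459 CPM, both lower in Het. Leaving out shared barcodes gave -0.26 for the immediate early and 0.49 for the heat shock sum, over 24 and 55 cells. Equal weight per cell gave -0.46 and 0.35. The heat shock share of the median cell was 0.50% in Het and 0.43% in WT, closer than the summed shares. Beside these values the natural killer cell markers summed to 38815 CPM in Het and 64312 CPM in WT, the T cell markers to 601 and 208 CPM and the proliferation markers to 2428 and 1579 CPM, and their part in the result was not tested.

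Set against monocyte-like cells, microglia-like cells taken as 1 class held a different mix of immediate early genes. The amount in that class averages the P2ry12 cluster (4.40% in Het and 4.74% in WT) and the Ltc4s cluster (0.68% and 0.51%). Monocyte-like cells held 2.66% and 2.65%, so neither cluster was level with them. In WT the sides also differed in sex marks. Xist UMIs without Y-linked ones were seen in 85 of 111 P2ry12 cluster cells but 7 of 593 monocyte-like cells. Y-linked UMIs without Xist were seen in 344 of those 593. The part of sex or animal in the comparison with monocyte-like cells was not tested. The sum had a log2 ratio of microglia-like over monocyte-like cells of 0.22 (0.21 to 0.24) in Het and 0.32 (0.31 to 0.33) in WT, which fell to 0.03 and 0.12 with TMM factors and turned to -0.12 and -0.17 after thinning. Of 39 members measured, 12 were more than 1.5-fold higher and 12 lower in microglia-like cells in both libraries, against 20.5% higher and 19.2% lower of 7055 genes. Rhob was the member with the largest excess, at 1804 CPM in Het and 1805 CPM in WT against 224 and 207 CPM, or 8.07-fold and 8.72-fold. It was also one of 3 members at least 3-fold above the median of 8 classes in both libraries. The others were Egr3 in dendritic cell-like cells, at 24.8 and 23.6 CPM against medians of 5.59 and 7.37 CPM, and Hspd1 in the Elane-Aldoc cluster, at 776 and 640 CPM against medians of 140 and 134 CPM. Without shared barcodes Hspd1 stood at 406 and 418 CPM there. Jun stood at 3872 and 4532 CPM in microglia-like against 1001 and 1090.2 CPM in monocyte-like cells, and Egr1 at 1515 and 1646 CPM against 537 and 548 CPM. Fosb, Jund, Atf3, Egr2, Ier3, Ier5 and Btg2 were the other immediate early genes higher in microglia-like cells.

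The members lower in microglia-like cells were led by nuclear receptors and phosphatases. Nr4a1 stood at 137 CPM in Het and 127 CPM in WT against 1159 and 1121 CPM in monocyte-like cells. Dusp2, a phosphatase of the nuclear MAP kinases, stood at 43.5 and 45.6 CPM against 476 and 471 CPM, and Dusp5, which acts on ERK, at 32.6 and 31.0 CPM against 258 and 244 CPM. Dusp1 stood at 1399 and 1264 CPM against 2514 and 2489 CPM, Klf2 at 798 and 857 CPM against 1742 and 1811 CPM and Nfkbiz, an atypical NF-kB inhibitor, at 481 and 517 CPM against 875 and 919 CPM. All 3 phosphatase genes were lower, with median log2 ratios of -2.99 and -2.98. Fosl2, Klf4 and Nr4a2 were the other immediate early genes lower. Nr4a2 reached the UMI minimum through monocyte-like cells (88 and 104 UMIs, against 9 and 2), so it had to differ. The heat shock sum was lower, with log2 ratios of -0.32 (-0.36 to -0.28) and -0.38 (-0.41 to -0.34). Hspa8 stood at 1264 and 1273 CPM against 2306 and 2276 CPM, and Hsp90ab1 at 1143 and 1097 CPM against 1771 and 1803 CPM. Hsph1 was the third heat shock gene lower, and Hspa5 and Dnajb1 were higher, with Hspa5 at 1190.1 and 1194 CPM against 542 and 582 CPM. The microglia-like class mixes the P2ry12 and Ltc4s clusters, which differ as given above.

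Patrolling monocyte-like cells (187 Het and 409 WT cells) held more immediate early RNA than classical monocyte-like cells (100 and 184 cells), with log2 ratios of 0.31 (0.29 to 0.33) in Het and 0.36 (0.34 to 0.38) in WT. Of 37 members measured, 10 were more than 1.5-fold higher and 2 lower in patrolling cells in both libraries, all 12 of them immediate early genes, against 16.7% higher and 13.1% lower of 5416 genes. Nr4a1, known to be required for patrolling monocytes, stood at 1586 and 1525 CPM against 772 and 686 CPM. Zfp36l1 stood at 1125 and 1130 CPM against 295 and 208 CPM, or 3.81-fold and 5.43-fold, and Dusp5 at 429 and 391 CPM against 103 and 85.7 CPM, or 4.16-fold and 4.57-fold. Dusp1 stood at 3317 and 3239 CPM against 1786 and 1682 CPM, Klf4 at 908 and 955 CPM against 460 and 441 CPM and Nfkbiz at 1286 and 1307 CPM against 502 and 501 CPM. The other 4 were Btg1, Dusp2, Egr1 and Zfp36. The 2 lower members were Ier3, at 137 and 149 CPM against 515 and 604 CPM, and Atf3, at 436 and 440 CPM against 947 and 907 CPM. Fos ran the same way as these without reaching the fold in both libraries, at 2462 and 2530 CPM against 3831 and 3574 CPM. The heat shock sum had log2 ratios of -0.12 (-0.16 to -0.07) and -0.17 (-0.20 to -0.13). Beside these values, median depth was 5490.0 and 4891 UMIs in patrolling against 13033 and 11121 in classical cells, and Malat1 34085 and 34378 CPM against 12306 CPM in both libraries, whose part in the result was not tested.

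Elsewhere single members stood out. Klf2, which marks quiescent endothelium under flow, was high in an unnamed cluster led by Cldn5 and Igfbp7, at 4168 CPM in Het (79 cells) and 3718 CPM in WT (35 cells), with a higher value only in the 14 B cell-like cells of Het. Hspa1a was highest there among all classes, at 226 and 79.8 CPM, against 36.2 and 34.9 CPM over all kept cells. Without shared barcodes (58 and 17 cells) Klf2 stood at 4073 and 3446 CPM and Hspa1a at 233 and 79.4 CPM in that cluster. Natural killer cell-like cells had the highest Dusp2, at 816 and 907 CPM, and Nr4a2, at 151 and 178 CPM, while Fos stood at 241 and 357 CPM there against 2884 and 2813 CPM over all kept cells. In the Elane-Aldoc cluster Hsp90ab1 stood at 3126 and 2797 CPM and Hspe1 at 950.1 and 704 CPM, each the highest of the 8 classes in both libraries. Without shared barcodes (29 and 11 cells) they stood at 2546 and 2009 CPM and at 701 and 617 CPM. Hsp90aa1 stood at 1039 and 570 CPM and Dnaja1 at 408 and 397 CPM there. Over all kept cells they stood at 278 and 277 CPM and at 255 and 269 CPM. Without shared barcodes the cluster held 1119 and 249 CPM of Hsp90aa1 and 373 and 318 CPM of Dnaja1. Not every heat shock gene was highest there, with Hspa5 at 843 and 838 CPM and Hspa1a at 27.1 and 4.96 CPM. Neutrophil-like cells were the lowest of the 8 classes for Hspa8, at 914 and 1134 CPM, and for Hspe1, at 113 and 138 CPM.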

How the data were processed

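RNA was measured in 2 libraries, 1 per genotype. The values are the deposited counts, whole numbers of UMIs per gene and cell. Per the submitters' processing notes Cell Ranger 4.0 and mm10 were used, whereas per the file headers the version was 5.0.0, and which one made the counts was not settled. Cells with 500 or more genes and a mitochondrial share below 10% were kept, scaled to 10000 UMIs, logged and clustered on 2000 variable genes without the members (30 principal components, 15 neighbours, Leiden resolution 0.5, seed 0). Clusters were named from 20 marker lists, by a rule set after the data were seen. Scrublet (expected rate 0.008 per 1000 cells) called 0 doublets, with thresholds of 0.0885 and 0.128 above every score, so it did not work here and none were removed. UMIs were summed per class and library. Log2 ratios carry exact conditional binomial 95% intervals, and no test was made. The ratios and intervals were tested on simulated counts.

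Named were the 12 members with the most UMIs, those past 1.5-fold between libraries with at least 50 UMIs in microglia-like or monocyte-like cells, those at least 3-fold over the median class in both libraries, up to 4 genes of each of 4 other lists, and the 10 genes most like each sum, of which 1 is not reported here. Other members described were chosen after their values were seen. The members and lists were chosen with earlier results of these data known. Alternatives covered the cell filter, clustering, thinning, shared barcodes, scaling, the UMI minimum and the weight per cell. Sequences came from RefSeq, and 7 members had no promoter window. The tools were Python 3.11.15, numpy 2.4.6, scipy 1.17.1, pandas 2.3.3, scanpy 1.11.5, anndata 0.12.19, igraph 0.11.9, matplotlib 3.10.9, R 4.3.3 and edgeR 4.0.16, the last for TMM factors only.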

Additional observations from a re-analysis of the deposited data

Results flagged for a closer look

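For both sums the Het over WT log2 ratio lay above 0 in some clusters and below 0 in others, beyond counting error, and 5 of the larger values are given here. The difference between clusters was not tested. For the immediate early sum the Ltc4s cluster stood at 0.42 (0.43 without shared barcodes and -0.17 with equal weight per cell), the Gpnmb-Spp1-Apoe cluster at -0.32 (-0.29 and -0.18), natural killer cell-like cells at -0.48 (-0.26 and -0.46) and the Elane-Aldoc cluster at -0.27 (0.20 and -0.15). For the heat shock sum natural killer cell-like cells stood at 0.63 (0.49 and 0.35). In the Ltc4s cluster the members behind the value include Klf6 at 1.49, Ier3 at 0.94, Fos at 0.77 and Jun at 0.64, with Klf2 at -0.83. The sign turned with equal weight per cell in the Ltc4s cluster and without shared barcodes in the Elane-Aldoc cluster.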

How the results depend on the processing

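Values are log2 ratios, first Het over WT, then ratios between classes in Het and WT, and the cause of each shift was not tested. Of 172 sums and counts under the alternatives, 86 moved by less than the counting interval (counts: under 1.5 times), 86 moved by more, and 0 changed sign from a main value past 1.5-fold. Sums closer to 0 did: of 76 values for sums whose interval leaves out 0, 13 turned sign. These were the immediate early sum of Het over WT in microglia-like cells (thinned, equal weight and the Ltc4s cluster alone), microglia-like over monocyte-like (no filter, thinned and equal weight) and the heat shock sum of P2ry12 over Ltc4s (both other scalings). Of 275 values of named members, 70 moved and 1 reversed, Nr4a2 in monocyte-like cells, at -0.0284 after thinning. Without a cell filter the microglia-like class held the Ltc4s type alone. The immediate early sum was then -0.47 in microglia-like and 0.0188 in monocyte-like cells, the heat shock sum -0.0496, microglia-like over monocyte-like -3.25 and -2.76 (heat shock -0.50 and -0.48), and 6 members were lower. With 1000 or more genes and a mitochondrial share below 5% the values were -0.0001 and 0.0227, heat shock -0.0819, and between classes 0.27 and 0.29 (heat shock -0.26 and -0.18). The microglia-like class then included another cluster, of 119 cells, led by Gm42418, Hes1 and Fcrls. Neither of these settings gave a P2ry12 over Ltc4s value. With the members kept in clustering the P2ry12 cluster held 316 cells, with Cd209f among its leading genes. No cluster was then named border-associated macrophage-like. The values were -0.0598 and, for heat shock, -0.0579. WT microglia-like over monocyte-like was 0.28 (heat shock -0.28 and -0.24), and P2ry12 over Ltc4s was 2.60 and 3.17, with 1 member higher. At resolution 1.0 they were -0.12, heat shock -0.0363, between classes 0.12 and 0.26, and P2ry12 over Ltc4s 3.28 and 3.42 (heat shock in Het 0.21), with 2 members lower and 0 heat shock genes lower in the P2ry12 cluster.

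Thinned to 2000 UMIs per cell, the immediate early sum was 0.0417 in microglia-like and -0.0096 in monocyte-like cells and the heat shock sum -0.0372. Microglia-like over monocyte-like was -0.12 and -0.17 (heat shock in Het -0.40), and P2ry12 over Ltc4s 3.43 and 3.55 (heat shock 0.25 and 0.17). 2 members were then lower in microglia-like cells, 0 higher in monocyte-like cells and 1 heat shock gene higher in the P2ry12 cluster. Without shared barcodes the values were -0.0271, heat shock -0.03, between classes 0.18 and 0.21 (heat shock in Het -0.37), and P2ry12 over Ltc4s 2.80 and 3.29 (heat shock in Het 0.23), with 1 member lower and 0 heat shock genes lower. Cells with Xist and no Y-linked UMIs gave -0.18 and 2 members higher. TMM factors, which shift P2ry12 over Ltc4s ratios by 0.36 and 0.45, gave -0.12 and -0.022, between classes 0.0264 and 0.12 (heat shock -0.52 and -0.58), and P2ry12 over Ltc4s 2.35 and 2.78 (heat shock -0.22 and -0.21, 3 genes lower). Median-of-ratios factors, with shifts of 0.30 and 0.37, gave 0.20 for Het microglia-like over monocyte-like and 2.40 and 2.87 (heat shock -0.17 and -0.12). Equal weight per cell gave 0.0576 and -0.0336, heat shock in monocyte-like cells 0.0061, between classes -0.25 and -0.34 (heat shock in WT -0.33), and P2ry12 over Ltc4s 3.11 and 2.95. The Ltc4s cluster alone, added after seeing the data, gave 0.42 and heat shock 0.11. A minimum of 10 UMIs gave 1 member higher in microglia-like and 2 in monocyte-like cells, and a minimum of 200 UMIs 0 in monocyte-like cells. No paired analysis was possible because the groups share only 1 replicate number, and with 1 library per group none could be left out. Depth limits Egr2, Egr3, Fosl2, Nr4a2, Dusp5, Hspa1b and Hsph1, which did not reach 50 UMIs over both microglia-like clusters in each library.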

Other observations

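Related genes outside the 40, from lists chosen with earlier results known, were set beside them. In the P2ry12 cluster 19 of 21 measured other immediate early genes were more than 1.5-fold higher than in the Ltc4s cluster in both libraries, with median log2 ratios of 2.02 and 2.37. Of 10 measured cytokine and chemokine genes 6 were higher, with medians of 2.03 and 2.32. Of 22 other heat shock and co-chaperone genes 2 were higher (medians -0.39 and -0.24), and of 18 unfolded protein response genes 6 were (medians 0.35 and 0.54). These stand against the 32.3% of all genes. As with the members, a gene can pass the UMI minimum through the P2ry12 cluster alone, and such a gene had to differ. The counts describe these lists and support nothing beyond them.

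Between libraries, 3 of the 10 measured cytokine and chemokine genes were more than 1.5-fold higher in Het microglia-like cells, against 3.87% of all genes. Cxcl10, an interferon-induced chemokine gene, stood at 209 CPM in Het and 73.2 CPM in WT, Cxcl2, which attracts neutrophils, at 967 and 461 CPM, and Il1b at 132 and 81.4 CPM. In the P2ry12 cluster alone the values were 183 and 93.6, 634 and 428, and 126 and 74.2 CPM. In the Ltc4s cluster they were 258 and 32.9, 1592 and 524, and 144 and 95.4 CPM. That cluster also held more RNA of neutrophil markers, as given above, and its part in these values was not tested. Among other immediate early genes Phlda1 stood at 66.6 and 23.4 CPM and Gadd45b at 88.3 and 54.4 CPM. Of the other chaperone genes Hspbp1 stood at 20.4 and 12.3 CPM and Hspb1 at 11.5 and 19.3 CPM, with intervals of the log2 ratio that include 0 for both (-0.12 to 1.61 and -1.68 to 0.14). The unfolded protein response genes Hsp90b1 (1023 and 967 CPM), Calr (538 and 514 CPM), Pdia6 (407 and 386 CPM) and Canx (369 and 351 CPM) lay close to level. These values have no replicate check.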
